A study of Mus musculus with 13 samples.

Results

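The genes described here make up the core of the type I interferon response: the transcription factors Irf7, Irf9 and Stat2, the ubiquitin-like modifier Isg15 and its protease Usp18, and the antiviral effectors Ifit1, Ifit2, Ifit3 and Rsad2. They were taken as the probes whose single annotated gene symbol is one of these 9 names, with the brightest probe standing for a gene. That gave 8 genes with 1 probe each, of 19938 genes with a probe of their own. All 8 passed the filter on dim probes, which left 16322 genes for the tests. The only probe that carries the name Isg15 also carries the name Gm9706, so no value is given for Isg15.

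Interferon beta and the interferon alphas are secreted proteins that bind the receptor pair Ifnar1 and Ifnar2 on nearly every cell. The kinases Jak1 and Tyk2 then phosphorylate Stat2, which joins Irf9 in a complex that enters the nucleus and binds a DNA motif called the interferon-stimulated response element. Irf7 is itself induced in this way and drives further interferon production. Ifit proteins bind foreign RNA and hold back its translation, Rsad2 (viperin) makes a nucleotide that stops viral polymerases, and Usp18 strips Isg15 from proteins and damps the receptor. In skin, keratinocytes, fibroblasts and resident leukocytes can all respond.

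The mice were C57Bl6 males aged 30 days after birth, their hair follicles in anagen (the growth phase), kept in light and dark periods of 12 h each. Their whole back skin was taken at 4 h steps, beginning at ZT2 and ending at ZT50 (ZT is the time in hours since the lights first came on). RNA of 3 mice per time was pooled in equal amounts and measured on 1 Affymetrix whole-transcript array, so the 13 pools hold 39 mice in all, with 6 pools taken in the dark (ZT14, 18, 22, 38, 42 and 46) and 7 in the light (ZT2, 6, 10, 26, 30, 34 and 50). Every group is of the same strain, sex, age and hair cycle stage, with no genetic change or treatment in the labels.

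The median intensity of an array was 439.98 at the lowest and 483.2 at the highest, and any pair of pools correlated at 0.978 to 0.996 over the tested genes. Of the epidermal keratinocyte markers, 10 of 10 were above the filter, with a summed intensity of 65943 to 76960 in dark pools and 66353 to 71058 in light pools. Liver transcripts stood high in the ZT46 pool, where the albumin gene Alb was at 10035 against at most 4435 in the other pools.

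The starts of the member genes differ in the response element. Its core, GAAA followed after any 2 bases by a further GAAA, was searched on both strands from 250 bases before to 50 bases after each annotated start (RefSeq, GRCm38.p6). It was found in 3.44% of all 32851 such windows. Windows were held for 8 members, and 5 of these had the core: Isg15 with 3 overlapping matches, Ifit1 and Ifit3 with 2 each, and Stat2 and Rsad2 with 1 each. The windows of Irf7, Irf9 and Ifit2 had none. The pair that moved most alike, Irf7 and Irf9, is shown beside 3 effectors, with the core in capitals and each sequence read in the gene's own direction. Irf7 lies at chr7:141266375-141266674 (minus strand), Irf9 at chr14:55603735-55604034 (plus), Ifit1 at chr19:34640639-34640938 (plus), Ifit3 at chr19:34583279-34583578 (plus) and Rsad2 at chr12:26456403-26456702 (minus).
Irf7: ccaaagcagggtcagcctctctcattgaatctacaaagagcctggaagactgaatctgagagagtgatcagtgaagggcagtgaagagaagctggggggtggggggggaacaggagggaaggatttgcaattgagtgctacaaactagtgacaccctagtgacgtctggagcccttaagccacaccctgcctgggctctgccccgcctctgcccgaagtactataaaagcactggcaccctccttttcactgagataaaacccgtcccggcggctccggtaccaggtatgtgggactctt
Irf9: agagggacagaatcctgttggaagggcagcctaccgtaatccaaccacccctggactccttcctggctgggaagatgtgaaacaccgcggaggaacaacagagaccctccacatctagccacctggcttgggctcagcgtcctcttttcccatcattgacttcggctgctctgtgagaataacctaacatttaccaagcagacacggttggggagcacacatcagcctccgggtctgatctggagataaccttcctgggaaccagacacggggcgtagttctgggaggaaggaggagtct
Ifit1: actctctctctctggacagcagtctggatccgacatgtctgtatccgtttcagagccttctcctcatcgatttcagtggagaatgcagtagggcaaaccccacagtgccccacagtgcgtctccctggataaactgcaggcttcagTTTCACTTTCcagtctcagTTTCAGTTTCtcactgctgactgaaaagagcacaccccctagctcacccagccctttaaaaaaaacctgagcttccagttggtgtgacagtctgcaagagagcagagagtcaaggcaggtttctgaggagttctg
Ifit3: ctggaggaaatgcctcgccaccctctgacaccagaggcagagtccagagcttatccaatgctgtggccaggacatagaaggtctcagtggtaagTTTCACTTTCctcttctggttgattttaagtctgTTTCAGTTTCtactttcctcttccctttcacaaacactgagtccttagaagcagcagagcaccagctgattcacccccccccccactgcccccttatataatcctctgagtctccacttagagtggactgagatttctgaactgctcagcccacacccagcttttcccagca
Rsad2: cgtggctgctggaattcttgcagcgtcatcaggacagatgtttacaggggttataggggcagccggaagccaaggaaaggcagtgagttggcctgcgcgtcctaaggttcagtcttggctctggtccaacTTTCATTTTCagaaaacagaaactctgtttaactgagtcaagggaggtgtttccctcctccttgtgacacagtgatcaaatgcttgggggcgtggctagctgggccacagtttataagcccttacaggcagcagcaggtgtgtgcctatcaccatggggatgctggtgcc

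In these windows the matches read on the opposite strand. They began 104 and 85 bases before the start in Ifit1, 156 and 122 bases before it in Ifit3, and 120 bases before it in Rsad2. A second window of Irf9, at chr14:55604329-55604628, also held no match. The Stat-type motif TTCNNNGAA was in 1 member window, the upstream one of Ifit2, and in 8.30% of all windows. The clock motif CACGTG was in 0 of the 10 member windows and in 7.15% of all. A match, or its lack, describes these letters and nothing about binding.

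The first question was how far each gene moved over the 2 days and nights. The moves were small. The brightest pool was 1.20 times the dimmest for Stat2, 1.30 times for Irf9, 1.32 times for Irf7 and 1.56 times for Ifit1, the widest of the 8. The median SD over the 13 pools was 0.148 log2 among the members and 0.111 among all tested genes. Fewer cells of a type and less RNA per cell cannot be told apart in whole skin.

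Irf7, the factor that amplifies the response, had the clearest day and night pattern. Its intensity was 712, 730.4 and 691 at ZT2, ZT6 and ZT10, then 594, 601 and 606 through the first night. It was 661, 663 and 637 on the second day, 585, 576 and 552 in the second night, and 626 at ZT50. Every dark pool lay below every light pool, and at each of the 6 hours the second day's pool was below the first day's. For such counts by hour, here and for Irf9 and Ifit3 below, no share over all genes is given. A negative slope over time was found in 9225 of all 16322 genes. Of all tested genes 27, 0.165%, had all dark pools below all light ones. That number was 72 with median centring and 31 to 90 with 1 pool left out (90 without ZT22, 79 without ZT18, 74 without ZT30 or ZT50, 61 without ZT10, 51 without ZT38, 48 without ZT2, 47 without ZT14, 45 without ZT42, 41 without ZT46), where fewer pools make such a gap easier to meet. In Irf7 the gap between the lowest light and the highest dark pool was 0.047 log2, and 0.037 to 0.072 in the other settings tried. Only a change of scaling could have closed it, and it was 0.066 with quantile normalization and 0.037 with median centring. Leaving out a pool can only keep or widen the gap, and a pseudocount cannot change its sign. Filters, probes and priors leave it as it is.

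Irf9, the DNA-binding part of the receptor-activated complex, followed a like course. It was at 783, 716, 839, 759, 717 and 728 in the dark pools from ZT14 to ZT46, against 929, 876, 906, 880.0, 834, 827 and 794 in the light pools from ZT2 to ZT50. The dark pools were the lower ones except ZT22, which lay above ZT30, ZT34 and ZT50. Its second-day pool was below the first-day one at 5 of 6 hours.

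Stat2, the partner of Irf9 in that complex, stayed flatter. It ran from 656 to 788 with a median of 729 in dark pools, and from 676 to 784 with a median of 724 in light pools. All 7 light pools lay within the range of the dark ones.

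The effectors moved in other ways. Ifit1 was at 380, 354, 514, 432, 386 and 415 in the dark pools in order of time, against 330.0, 335, 374, 413, 405, 371 and 477 in the light pools. The high pools were ZT22 and ZT50 and the low ones ZT2 and ZT6, so the groups overlapped widely. Ifit2 was between 237 and 262 in the dark and between 197 and 306 in the light, where ZT2 was lowest and ZT30 highest.

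Ifit3 was between 663 and 821 (median 746) in dark pools and between 626 and 898 (median 834) in light pools. Its 2 lowest light pools were ZT2 and ZT6 of the first day, and the same hours of the second day, at 849.6 and 848, were among its highest. So Ifit2 and Ifit3 were both low in the first morning and high in the second.

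Usp18, the negative regulator, was high at ZT18 to ZT30 and at ZT50. It was at 439 in ZT14, 528 in ZT18, 550.1 in ZT22, 597 in ZT26, 599.5 in ZT30 and 462 in ZT34, and at ZT50 it was 526. The other pools lay between 433 and 473. The stretch from ZT18 to ZT30 crossed a night and a morning and was not seen at ZT2, ZT6, ZT42 and ZT46, the same hours of the other day.

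Rsad2, the viperin gene, was at 245, 276, 284, 263, 272 and 301 in the dark pools from ZT14 to ZT46, against 233, 215, 246, 284, 263, 214 and 284 in the light pools from ZT2 to ZT50. It was lowest at ZT34 and ZT6 and highest at ZT46, and 4 light pools, ZT10, ZT26, ZT30 and ZT50, lay within the range of the dark ones.

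**Figure D1:**
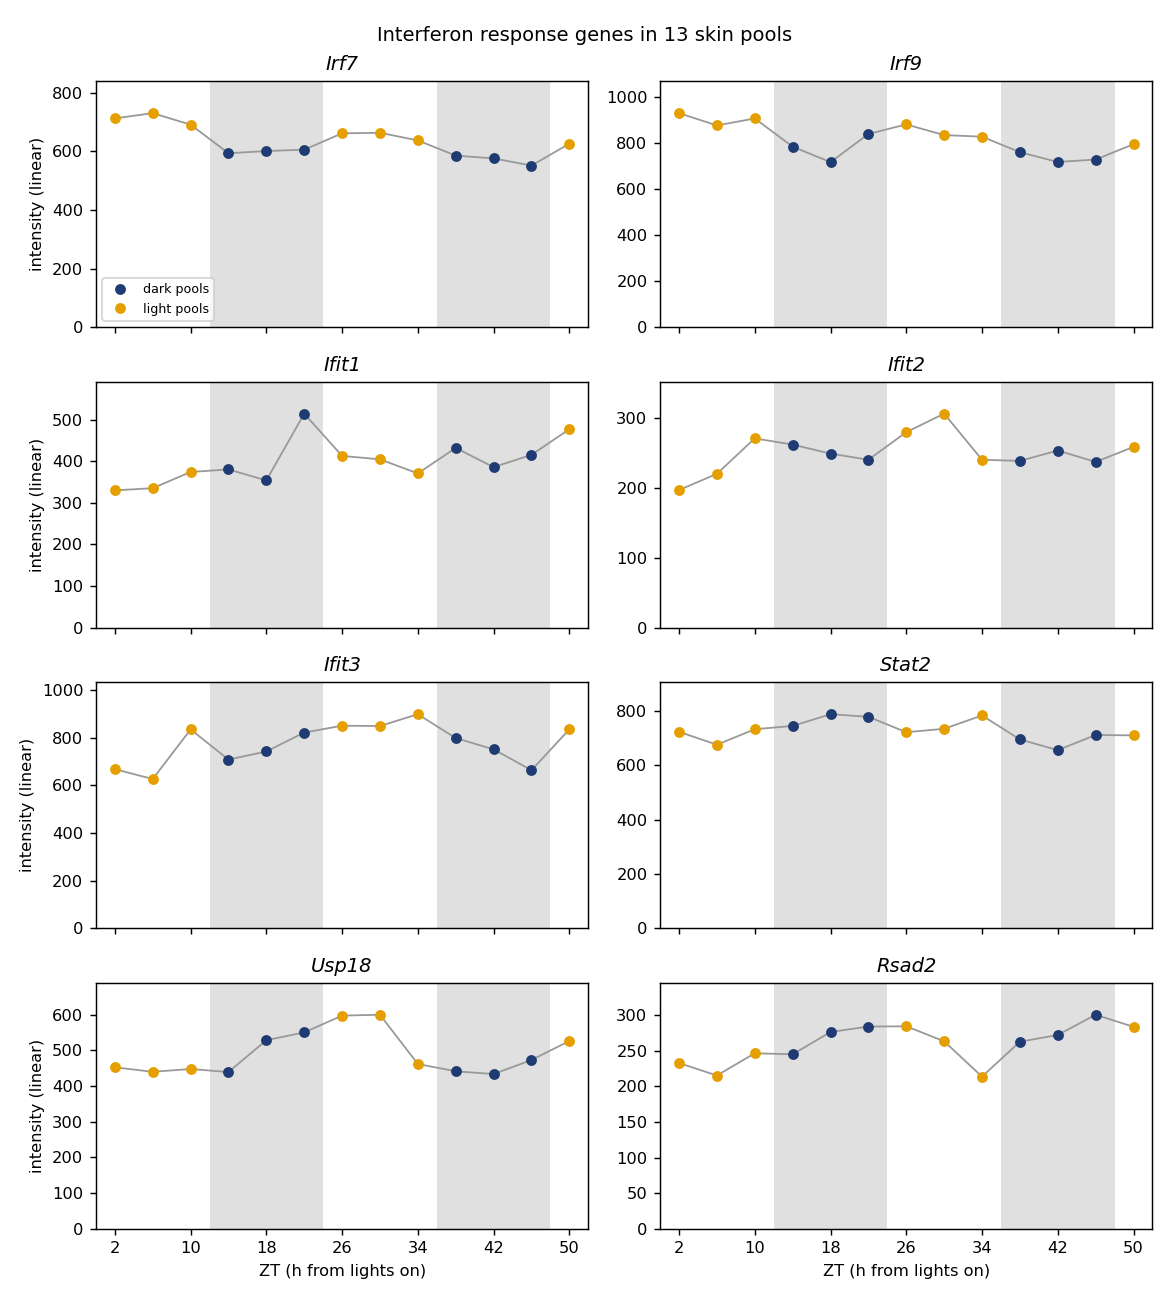
Intensity on a linear scale (y axis) of the 8 measured members in each of the 13 pools against ZT in hours (x axis), with nights shaded. Each point is 1 pool of 3 mice. Irf7 is lower in both nights than in the days around them, while Usp18 is high from ZT18 to ZT30 and again at ZT50.

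The second question was whether any member followed a 24 h wave, fitted in limma on log2(intensity + 16) with linear time beside it. None of the 8 passed at an adjusted p under 0.05, where 23 genes, 0.141% of all tested, did. At an unadjusted p under 0.05 there were 3 of 8 members, beside 9.54% of all genes. These were Irf7, Irf9 and Rsad2. The median peak-to-trough fold was 1.16 among the members and 1.09 among all genes.

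For Irf7 the fitted amplitude was 0.12 ± 0.03 log2 (SE, 13 pools), its peak 1.18 times its trough, and the wave crested 5.7 ± 0.9 h into the light period (limma, adjusted p = 0.350). For Irf9 the amplitude was likewise 0.12 ± 0.03, and the crest came at 5.3 ± 1.0 h (limma, adjusted p = 0.432). Their fitted peaks lay within each other's SE. Rsad2 had an amplitude of 0.13 ± 0.04 and peaked late in the night, at 21.3 ± 1.1 h (limma, adjusted p = 0.484). Usp18 had a like amplitude, 0.12 ± 0.05, around a larger scatter (limma, adjusted p = 0.590). The residual SD was 0.159 log2 for Usp18 and 0.038 for Irf7. The other 4 members had amplitudes from 0.01 in Stat2 to 0.09 in Ifit3, with adjusted p from 0.743 to 0.979 in limma.

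The third question set the dark against the light pools. Irf7 averaged 586 ± 19.8 (SD, n = 6) in the dark and 675 ± 38.4 (SD, n = 7) in the light, a difference of -0.17 ± 0.04 log2 (SE, limma, adjusted p = 0.297). Irf9 averaged 757 ± 47.9 in the dark and 864 ± 47.5 in the light, a difference of -0.16 ± 0.04 (limma, adjusted p = 0.324). None of the 8 passed, where 1 gene, 0.00613% of all tested, did. Irf7 and Irf9 were the 2 members at an unadjusted p under 0.05, both lower in the dark, and 4.87% of all genes were lower and 7.56% higher in the dark at that level.

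The 6 remaining members differed by at most 0.11 log2 in size. Rsad2 was 0.10 ± 0.07 higher in the dark, and Ifit3 was at -0.11 ± 0.08 and Usp18 at -0.09 ± 0.09 (dark minus light, log2, SE), with adjusted p from 0.501 to 0.665 in limma. Ifit2 was at -0.05, Ifit1 at 0.05 and Stat2 at 0.01. Under quantile normalization Ifit1 and Stat2 turned to -0.016 and -0.00061, so no direction is given for them. The median difference over all genes was 0.01 as deposited and -0.03 with each array centred on its median, under which Irf7 was at -0.21 and Irf9 at -0.20.

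**Figure D2:**
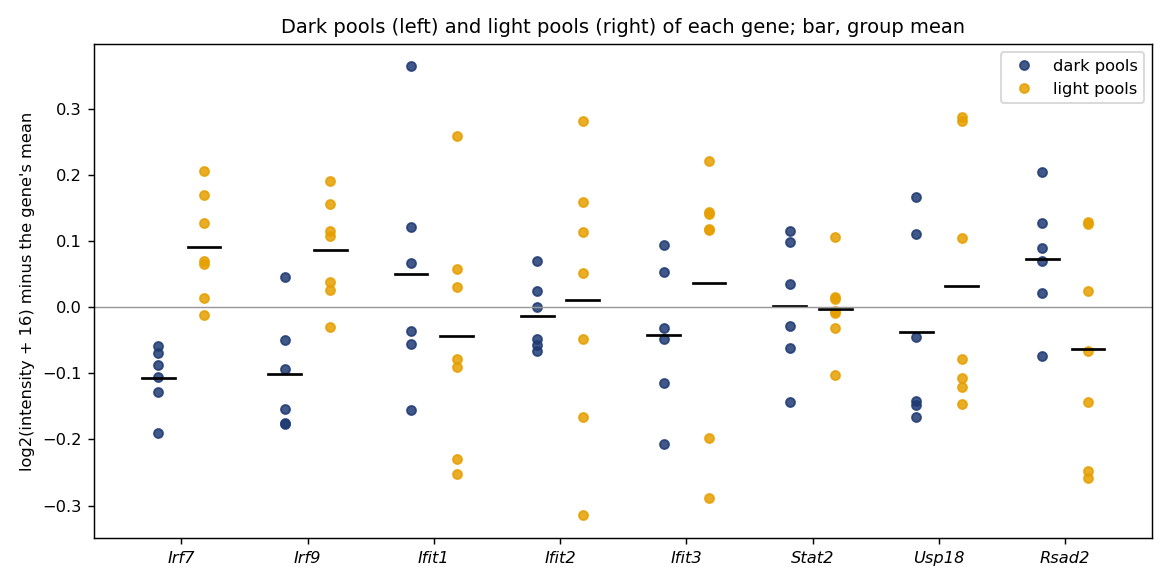
Each member's log2(intensity + 16) minus its mean over the 13 pools (y axis), with dark pools left and light pools right of each gene name (x axis). Points are pools and bars are group means. Only Irf7 has dark and light pools that do not overlap.

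The fourth question was drift across the 48 h. No member and no other gene passed (limma, 0 of 16322 genes, 0%, with 8.80% at an unadjusted p under 0.05). Of the 8 members, 3 were at that unadjusted level. Irf7 had a slope of -0.09 ± 0.03 log2 per 24 h (SE, limma, adjusted p = 0.419) and Irf9 of -0.09 ± 0.04 (limma, adjusted p = 0.489), with 5.59% of all genes falling at that level. Ifit1 had a slope of 0.15 ± 0.07 (limma, adjusted p = 0.544), and 3.22% of all genes had a positive slope at that level. The 2 factors and this effector had slopes of opposite sign, none past the threshold. Ifit3 was higher on the second day at 5 of 6 hours, by 0.13 ± 0.26 log2 (SD, 6 hours), a spread wider than the mean. Skeletal muscle markers had the highest correlation with Ifit3 of the marker lists, at 0.623 for their mean. Macrophages and dendritic cells came next at 0.443. Of the muscle markers 12 of 12 were lower in the dark (median -0.26 log2), beside 7244 of all 16322 genes. Of these 12, 1 was at an unadjusted p under 0.05 (limma). Their summed intensities were 45291 to 81240 in dark and 40682 to 79972 in light pools. All 12 had a positive slope over time, 5 of them at an unadjusted p under 0.05. The liver markers correlated with Ifit3 at -0.559, the lowest of the lists, with epidermal keratinocytes next at -0.447. Of the liver markers 10 of 10 were higher in the dark, beside 9078 of all 16322 genes. Of the 10, 0 were at an unadjusted p under 0.05 (limma). Their sums were 7231 to 36645 in dark and 6767 to 12156 in light pools. The high end was the ZT46 pool alone, also the lowest dark pool of Ifit3. There the centred liver mean was 2.14 log2, against -0.70 to 0.41 in the other dark pools. The part of any of these tissues or cells in the Ifit3 values was not tested.

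The fifth question was whether the members moved together from pool to pool. Of the 28 pairs of members 19 correlated above 0, with a median r of 0.113. Irf7 and Irf9, the pair with the highest r, correlated at r = 0.885 and rho = 0.857 over the 13 pools, which is a description of a pair singled out for its value. Irf9 ranked 4 among the 16321 other genes by its r with Irf7. In the fit of all genes on the Irf7 level, the slope of Irf9 was 0.91 ± 0.18 log2 per log2 (SE, limma, adjusted p = 0.137). No gene passed that fit (0%), and 13.7% of genes were at an unadjusted p under 0.05, 5.51% with a positive and 8.23% with a negative slope. Of the 7 members in that fit 2 were at this level, Irf9 with a positive and Rsad2 with a negative slope. With each array centred on its median 221 genes passed, Irf9 among them (limma, adjusted p = 0.0213).

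The likeness of Irf7 and Irf9 was weaker once the daily swing and the drift were taken out. Without the 2 pools farthest from the median of Irf7, ZT2 and ZT6, r was 0.872, and it was 0.541 within the 6 dark and 0.806 within the 7 light pools. After the 24 h wave and linear time were taken out of both, r was 0.106. The residual SD of Irf7 was 0.038 log2, so little was left in which further shared variation could be seen.

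The 5 induced genes were Ifit1, Ifit2, Ifit3, Usp18 and Rsad2. Over all 13 pools the 10 pairs among them correlated above 0, from 0.154 to 0.670 with a median of 0.496, while the median over all pairs of tested genes was 0.007. Within the 7 light pools 10 of 10 were above 0 (median 0.680), but within the 6 dark pools 5 were above and 5 below 0 (median 0.074), and 4 of those 5 hold Ifit2. Over all pools the 10 were also above 0 with quantile normalization (median 0.580) and with median centring (0.564). With wave and linear time taken out, the 10 pairs lay between 0.336 and 0.808, with a median of 0.531. The highest of these were Ifit2 with Rsad2 at 0.808 and Ifit2 with Usp18 at 0.787, pairs whose levels as measured stood at -0.730 and -0.367 within the dark pools and at 0.653 and 0.755 within the light ones. These are descriptions over 13 pools, where both genes of a pair were read from the same array and share its depth of signal.

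Ifit1 with Rsad2, the highest of the 10, gave r = 0.670 and rho = 0.709, and r = 0.657 without ZT22 and ZT50. Within the 6 dark pools r was 0.324 and within the 7 light ones 0.828. In a fit of all genes on the Ifit1 level no gene passed, and Rsad2 had a slope of 0.56 ± 0.18 (SE, limma, adjusted p = 0.99984).

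The relation of Irf7 and Irf9 to the induced genes depended on the pools. Of the 10 pairs that join Irf7 or Irf9 to an induced gene, 3 were above 0, and the median r was -0.139. Within the 6 dark pools 7 of 10 were above 0 (median 0.333), and within the 7 light pools 0 of 10 were (median -0.523). Without ZT2 and ZT6, the pools farthest from the median of Irf7, its r was 0.787 with Ifit3, 0.692 with Ifit2 and 0.419 with Usp18. It was -0.123 with Ifit1 and -0.379 with Rsad2. Irf9 without its own farthest pools, ZT18 and ZT42, had r from -0.475 with Ifit1 to 0.090 with Usp18. Of the 10 pairs so trimmed 5 were above 0, with a median of -0.040. Over all pools 7 of 10 were above 0 under quantile normalization and 6 with median centring. The sign of most of these pairs was therefore not settled. Irf7 with Rsad2, the lowest of the 28 pairs, had r = -0.630 and rho = -0.495, r = -0.217 with wave and time taken out, r = -0.379 without ZT2 and ZT6, -0.465 within the dark and -0.494 within the light pools, and a slope of -0.77 ± 0.27 (SE, limma, adjusted p = 0.260). Irf7 and Ifit3 had r = -0.049 over all pools, 0.697 within the 6 dark pools and -0.856 within the 7 light ones. That light value was the lowest of the 28 pairs, so it describes a pair singled out for its value. The 7 light pools include ZT2 and ZT6, where Irf7 was highest and Ifit3 lowest among them. Light and the first morning therefore cannot be told apart here. Stat2 stood nearest to Ifit3 (0.396) and Usp18 (0.394).

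**Figure D3:**
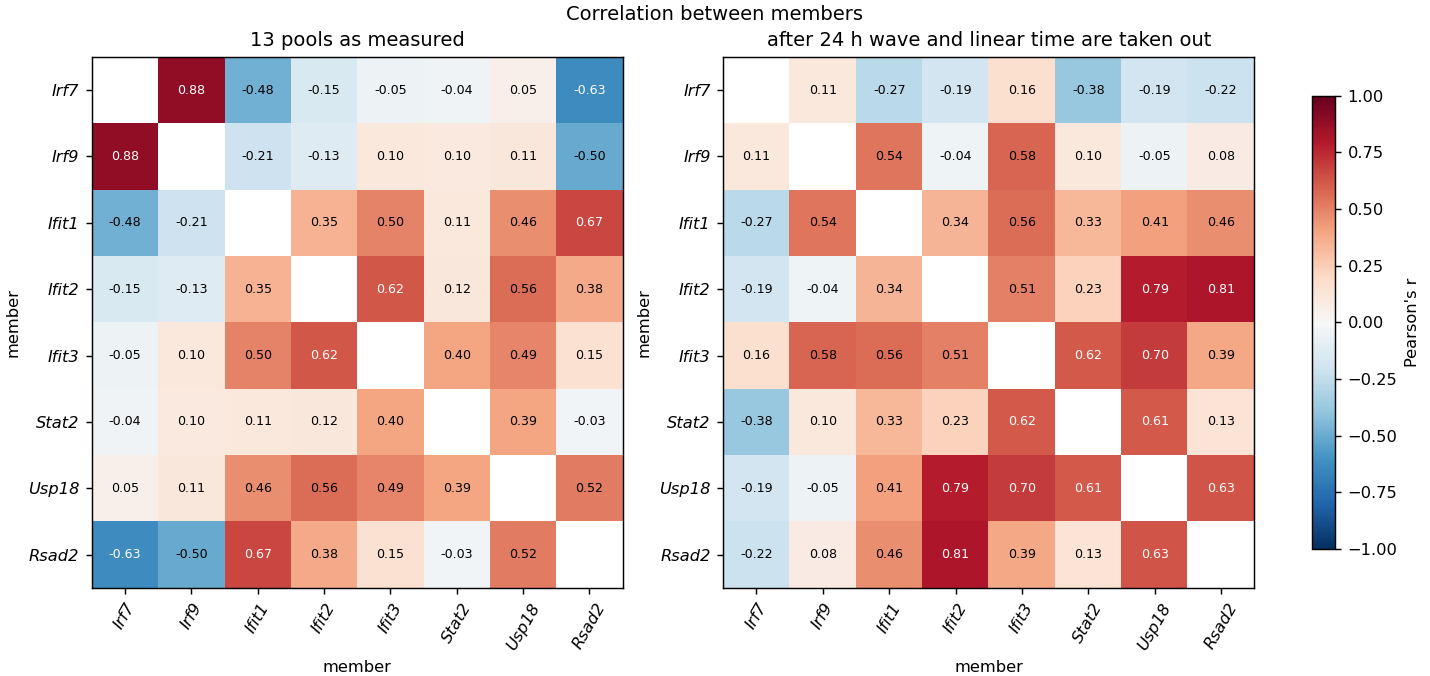
Pearson's r between the log2 levels of each pair of members over 13 pools (rows and columns, genes; colour scale from -1 to 1). The left panel shows levels as measured and the right panel levels after the 24 h wave and linear time are taken out. Irf7 and Irf9 stand at 0.88 on the left and 0.11 on the right, while the induced genes are above 0 in both over all 13 pools.

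The mean of the 8 members, each centred on its own mean, lay lowest at ZT6 (-0.11 log2) and highest at ZT26 (0.12) and ZT30 (0.11). Usp18 was the member most like the mean of the others (r = 0.764), then Ifit3 (0.636), Ifit2 (0.540) and Ifit1 (0.442), while Irf7 (-0.147) and Irf9 (0.032) were least like it. The 10 genes outside the members closest to the mean profile were Rreb1 (r = 0.900), Arrb1, Cnn3, Nt5dc3, Sec16a, Yap1, Gid4, Pycard, Mipep and Gm340 (0.801), over 13 pools. None of the 10 was on an interferon list. The most opposed were Cntrob (-0.903), Tceanc (-0.879) and 1700029J07Rik (-0.879). Of 44 further interferon-stimulated effectors 29 correlated above 0 with it, with a median of 0.312 beside -0.049 for all genes, and 15 were among the 1000 highest.

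The rest of the pathway was read from lists of its parts, in which no gene passed any of the 4 tests (limma, adjusted p under 0.05). Genes named below with a slope on the Irf7 level were chosen by that fit. Irf7 was itself lower in the dark, so their dark minus light values are not independent of the choice. The ligand probes differed in brightness. Among the tested ones the mean log2 level ran from 7.77 for Ifna11 to 9.54 for Ifna5, which was level with Stat2 at 9.54. Ifnb1, at 97.3 to 172 with a median of 129, and the keratinocyte interferon gene Ifnk, at 92.9 to 125, lay below the filter. Of 18 listed ligands 14 had a probe of their own and 8 were tested, and near-identical sequences make probes of the alpha family uncertain. All 8 were higher in the dark as deposited, by a median of 0.14 log2, beside 9078 of all 16322 genes. With quantile normalization 6 of 8 were higher, beside 8006 of 16323 genes, and with median centring 7 of 8, beside 6110 of 16322. Ifna11 was between 193 and 246 in the dark and between 159 and 208 in the light, a difference of 0.20 ± 0.07 (SE, limma, adjusted p = 0.357). On the Irf7 level, Ifna11 had a slope of -1.07 and an adjusted p of 0.215 in limma, Ifnz one of -0.68 and 0.243, and Ifna5 one of -0.78 and 0.379.

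The receptor chains had small 24 h amplitudes, while the kinase Tyk2 ranged more widely. Ifnar1 ran from 1229 to 1395 in the dark and from 1273 to 1412 in the light, and Ifnar2 from 1240.4 to 1436 in the dark and from 1242 to 1509.6 in the light. Their 24 h amplitudes were 0.03 ± 0.03 and 0.01 ± 0.04 log2 (SE). Jak1 had an amplitude of 0.04 and Tyk2 of 0.08 (limma, adjusted p = 0.869 and 0.616). Tyk2 ran from 562 to 732 in the dark and from 651 to 751 in the light, at -0.11 ± 0.06 for dark minus light (limma, adjusted p = 0.443).

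Among 19 genes that sense nucleic acid and induce interferon, 12 were lower in the dark, with a median of -0.01 log2. Over all genes 7244 of 16322 were lower in the dark. With median centring 17 of 19 were lower, beside 10212 of all 16322 genes, and with quantile normalization 13, beside 8317 of 16323. Trim25, a ligase that switches on the RNA sensor Ddx58 (RIG-I), was between 696 and 803 in the dark and between 773 and 920.0 in the light, at -0.13 ± 0.05 (SE, limma, adjusted p = 0.362). Ddx58 itself was at -0.12 ± 0.06 (limma, adjusted p = 0.416). Their slopes on the Irf7 level were 0.49 and 0.51, with limma adjusted p of 0.346 and 0.370, and that of Irf5 was 0.29 (0.482). Irf3, the constitutive partner of Irf7, was between 1936 and 2247 in the dark and between 1965 and 2317 in the light, with an amplitude of 0.03.

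Of the 13 negative regulators and nucleases, 9 were lower in the dark, with a median of -0.01, beside the 7244 of all 16322 genes. Ptpn6, a phosphatase, had a slope of 0.35 on the Irf7 level (limma, adjusted p = 0.377), the nuclease gene Isg20 one of 0.46 (0.449) and Trex1, a DNase, one of -0.21 (0.576). Of 44 tested effectors beyond the members, 27 were lower in the dark, with a median of -0.02, beside the same 7244 of 16322. With quantile normalization 35 of 44 were lower, beside 8317 of 16323 genes, and with median centring 33, beside 10212 of 16322. Parp12 was between 839 and 975 in the dark and between 953 and 1064 in the light (-0.11 ± 0.05, SE, limma, adjusted p = 0.372), with a slope of 0.46 on Irf7 (0.342), while Phf11d had one of -0.49 (0.348) and Slfn2 one of 0.48 (0.374). The dynamin-like antiviral genes Mx1 (94.6 to 132) and Mx2 (83.9 to 124) and the near copy of Ifit3, Ifit3b (53.5 to 132), were below the filter.

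**Figure D4:**
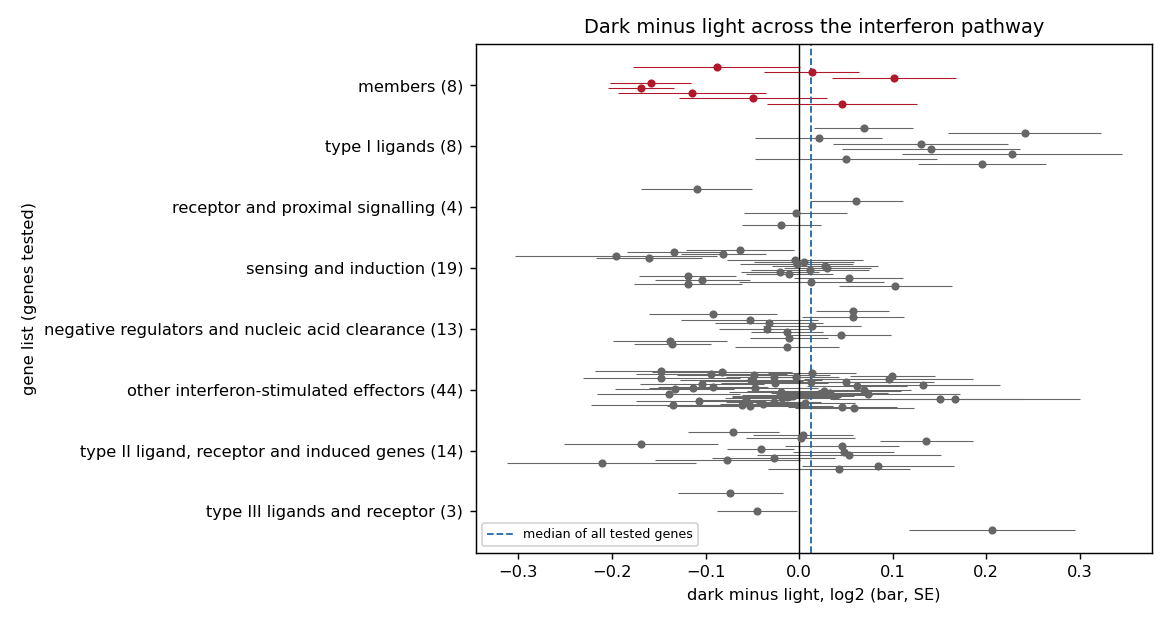
Dark minus light in log2 with its SE (x axis) for each tested gene of the interferon lists (y axis, number of genes in brackets). Members are in red, and the dashed line is the median of all tested genes, 0.01. The 8 ligands lie right of 0 and no gene shown passed the test.

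The summed leukocyte markers overlapped between dark and light pools. For macrophages and dendritic cells, 12 of 12 markers were tested and their summed intensity was 16922 to 19407 in the dark and 17188 to 20703 in the light. For plasmacytoid dendritic cells, the main interferon alpha producers, 6 of 6 were tested and the sums were 11162 to 13817 in the dark and 10801 to 14058 in the light. Langerhans cell markers (4 of 4) summed to 5183 to 5578 in the dark and 5415 to 5776 in the light, and their mean correlated at 0.539 with Irf7, the highest of 13 marker lists. The lowest was endothelium at -0.584. The 4 Langerhans cell markers did not move as 1 set. On the Irf7 level 3 had a positive and 1 a negative slope, with 1 of each sign at an unadjusted p under 0.05 (limma). The part of these cells in the Irf7 pattern was not tested. Without the ZT46 pool, where liver transcripts stood high, the dark minus light difference was -0.17 for Irf7 and -0.16 for Irf9, with limma adjusted p of 0.468 and 0.478.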

How the data were processed

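The authors deposited linear intensity values, 1 column per pool. The tools named are PLIER 2.0 and Affymetrix Expression Console 1.1.1, per the submitters' processing notes, whose roles are unstated. How arrays were scaled to each other is not given here. Of 35557 probes, 21789 have 1 gene symbol, 1621 several and 12147 none in the platform annotation, and 21698 of the first were found in RefSeq by gene ID. Values were converted to log2(intensity + 16), and the dimmest genes were dropped (mean under 7.61, the 25th percentile). Tests ran in limma 3.58.1 (R 4.3.3) over all genes with Benjamini-Hochberg adjustment: a 24 h wave with linear time, dark minus light with linear time, drift beside the wave, and covariation with Irf7. Folds on this scale understate dim genes. Scripts were tested on simulated data first. Members and lists were chosen with earlier results of these data known. Named were all members, fixed receptor and ligand genes, and the 3 smallest p per list in the Irf7 fit. Others, such as Mx1, Mx2, Ifit3b, were chosen after values were seen. Different mice make up each pool, so a p-value reflects pool-to-pool spread only. Light and dark alternated throughout, so a daily pattern is not shown to persist without them. The number of arrays limits precision. Figures used matplotlib 3.10.9 in Python 3.11.15. Alternatives were other scalings, pseudocounts, filters, probes, priors and covariates, other anchor genes, and leaving out each pool.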

Additional observations from a re-analysis of the deposited data

How the results depend on the processing

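No member passed a test under any alternative except Irf9 in the covariation with Irf7 under median centring, where 1 member and 221 of all genes were called. The dark minus light difference of Irf7 lay between -0.22 and -0.16 log2 (adjusted p from 0.121 to 0.543) over 23 alternatives and its 24 h amplitude between 0.11 and 0.15 (adjusted p from 0.223 to 0.582). Irf9 lay between -0.21 and -0.13 (adjusted p from 0.121 to 0.543) and between 0.09 and 0.15 (adjusted p from 0.291 to 0.664). The covariation of Irf9 with Irf7 had a slope from 0.17 to 1.05 and an adjusted p from 0.0213 to 0.9997, the highest with wave and time as covariates. Counts over all genes moved. For the 24 h wave 15 genes passed with no filter, and 13 (without ZT18) to 30 (without ZT46) with 1 pool left out. For dark minus light 0 passed with quantile normalization, pseudocount 64, no filter or the intensity trend, 2 with the 50th percentile filter or no linear time, and 0 to 4 with 1 pool left out (4 without ZT38). For covariation 0 to 12 passed with 1 pool left out (12 without ZT22). The genes with all dark below all light pools numbered 27 as deposited, 40 with quantile normalization and 72 with median centring. This count and the gap in Irf7 were added after the data were seen.

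Small values turned sign. Dark minus light of Ifit1 was -0.016 with quantile normalization and -0.039 to 0.092 with 1 pool left out, and that of Stat2 was -0.00061 with quantile normalization, -0.030 with median centring, -0.00065 with cycle number, and -0.012 to 0.040 with 1 pool left out. The slope on Irf7 was 0.111 and 0.039 for Ifit2, 0.099 and 0.256 for Ifit3 and 0.057 and 0.231 for Stat2, with quantile normalization first and median centring after it. With wave and time as covariates it was 0.661 for Ifit3 and -0.786 for Usp18. With 1 pool left out it ran from -0.333 to 0.178 for Ifit2, -0.394 to 0.401 for Ifit3, -0.153 to 0.141 for Stat2 and -0.064 to 0.347 for Usp18. The drift of Usp18 ran from -0.023 (without ZT2) to 0.079. The cause was not tested. The 50th percentile filter gave no value for Ifit1, Ifit2 and Rsad2. No paired analysis of dark against light was possible because different mice make up each pool. The 2 days were paired by hour, as a description.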

Other observations

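The second interferon system, that of interferon gamma, was also without a called gene. Ifng, at 133 to 192, and the guanylate-binding protein genes Gbp2b and Gbp5 lay below the filter. Of 21 listed genes 14 were tested, 8 higher and 6 lower in the dark, with a median of 0.003 log2. Cxcl9, a chemokine that draws T cells, was between 286 and 364 in the dark and between 312 and 512 in the light, with a 24 h amplitude of 0.20 ± 0.07 log2 (SE, limma, adjusted p = 0.511) and a fitted peak at 8.5 h. The GTPase gene Iigp1 had a slope of -0.72 on the Irf7 level (limma, adjusted p = 0.277) and Tap1, a peptide transporter of antigen presentation, one of 0.39 (0.412).

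Of the interferon lambda system, Ifnl2 was between 1571 and 1934 in the dark and between 1187 and 1849 in the light, a difference of 0.21 ± 0.09 (SE, limma, adjusted p = 0.381). Its receptor chains Ifnlr1 and Il10rb were at -0.05 and -0.07 (limma, adjusted p = 0.649 and 0.564). Of T and NK cell markers 6 of 12 passed the filter, with Cd3d, Klrd1, Ncr1 and Il2rb below it, and of neutrophil markers 4 of 8, with Ly6g, Retnlg, Mpo and Cxcr2 below it. Among 16 sets of values, the dark or light pools of each member, no pool stood apart from the rest by Dixon's ratio.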
